A study of Mus musculus with 4 samples.

Results

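Glycolysis and the transcriptional response to low oxygen were followed through 36 genes in cultured mouse macrophages that had been loaded with heme. The genes were taken by symbol from the 23284 rows of each expression file. All 35 listed symbols were present, and pyruvate kinase was listed under its older symbol Pkm2, which made the 36. They cover glucose uptake, the 10 glycolytic steps, lactate formation and export, the kinases that hold back pyruvate dehydrogenase, the hypoxia-inducible factor (HIF) regulators and a set of HIF target genes.

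The libraries came from 4 cultures of macrophages grown from bone marrow, 1 for each combination of genotype and lipopolysaccharide (LPS), a bacterial outer membrane component that Toll-like receptor 4 senses. LPS was given at 100 ng/ml and lasted 4 h. The groups were Spic-/- cells with LPS, Spic-/- cells without LPS, control (Spic+/+) cells with LPS and control cells without LPS. In the sample titles the libraries with LPS are marked 4 h, and those without LPS are marked with an earlier time. Time in culture may therefore differ along with LPS, and its part in the LPS ratios was not tested. Every culture, controls included, was first given hemin, the oxidised form of heme, for 18 h, at 40 µM by the treatment protocol (or 40 mM by the descriptions of the samples), so no comparison here is with cells free of added hemin. Spic codes for the Ets-family transcription factor Spi-C, which macrophages make in response to heme. The sample titles call the knockout conditional, and the labels do not give its allele, a Cre driver, or the number, sex or age of the mice. Since each group is 1 library, differences could not be checked against replicates, and tests were not run.

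Glycolysis splits glucose into pyruvate in the cytosol, and pyruvate is then either reduced to lactate and exported or oxidised in mitochondria. HIF-1 is a transcription factor whose alpha subunit is hydroxylated by the oxygen-dependent EGLN enzymes and then bound by the VHL ubiquitin ligase for destruction; when hydroxylation slows, the subunit accumulates and drives genes of glucose uptake, glycolysis, lactate handling, mitophagy and angiogenesis. LPS-stimulated macrophages are known to raise glycolytic flux and to induce Hif1a, which is how genes of low-oxygen metabolism come to be studied in cells kept in ambient oxygen.

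Levels are given as FPKM, the fragments of a gene per kilobase of its exons after the authors' scaling of each library, so they can be set side by side between genes. Differences were taken on the log2(FPKM + 1) scale, where low genes appear closer together than they are. A gene was called higher or lower at 2-fold or more if 1 or both of the libraries compared reached 5 FPKM. The spacing of low values gave depths of 51.6% in knockout cells with LPS, 82.8% in knockout cells without LPS and 67.8% in control cells with LPS, relative to control cells without LPS. The 95% counting intervals given for FPKM ratios (exact, from estimated fragments) hold counting error alone and leave out how cultures vary. Spic stood at 80.8 FPKM in knockout against 406 in control cells with LPS, and at 14.98 against 53.1 without LPS. Of 9 macrophage markers 8 were listed, and Csf1r, Cd68, Emr1, Itgam, Lyz2 and Cd14 stood at 114 FPKM or more in all 4 libraries, Fcgr1 between 51.2 and 115 FPKM and Mertk between 6.85 and 18.5 FPKM. Lyz2 was lower in knockout, at 3419 FPKM against 5620.4 in control cells with LPS and at 4014 against 6340.4 without. It ran against most of its list. Over the 8 listed markers the median log2 ratio of knockout over control was 0.26 with LPS and 0.27 without. Cd14 was called higher in knockout without LPS, at 234 FPKM against 114. Dendritic cell markers summed to at most 6.95 FPKM in any library, most of it Itgax, and those of B cells to 2.197, of T and NK cells to 0.304 and of erythroid cells to 0.403 FPKM.

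Most of the messenger RNA of the pathway belonged to 9 enzyme genes that act between glucose-6-phosphate and lactate. These were Gpi1, Aldoa, Tpi1, Gapdh, Pgk1, Pgam1, Eno1, Pkm2 and Ldha, each at 162 FPKM or more in all 4 libraries, and together they made up 85.2% of the summed FPKM of the 36 genes in knockout cells with LPS, 90.6% in knockout cells without LPS, 84.6% in control cells with LPS and 90.3% in control cells without LPS. Aldoa, the aldolase gene of most tissues, stood at 1817 FPKM in knockout cells with LPS, 1176 in knockout cells without LPS, 1513 in control cells with LPS and 1044 in control cells without LPS. Pkm2, the pyruvate kinase gene, stood at 1266, 1273, 1124 and 1155 FPKM in the same order of libraries, and Gapdh, the glyceraldehyde-3-phosphate dehydrogenase gene, at 1302, 768, 1056 and 666. Aldoa and Gapdh ranked first and second with LPS in knockout cells, while Pkm2 ranked first in both libraries without LPS. Several of these genes have processed copies elsewhere in the mouse genome, and the sources used here do not give how fragments shared with such copies were assigned.

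**Figure D1:**
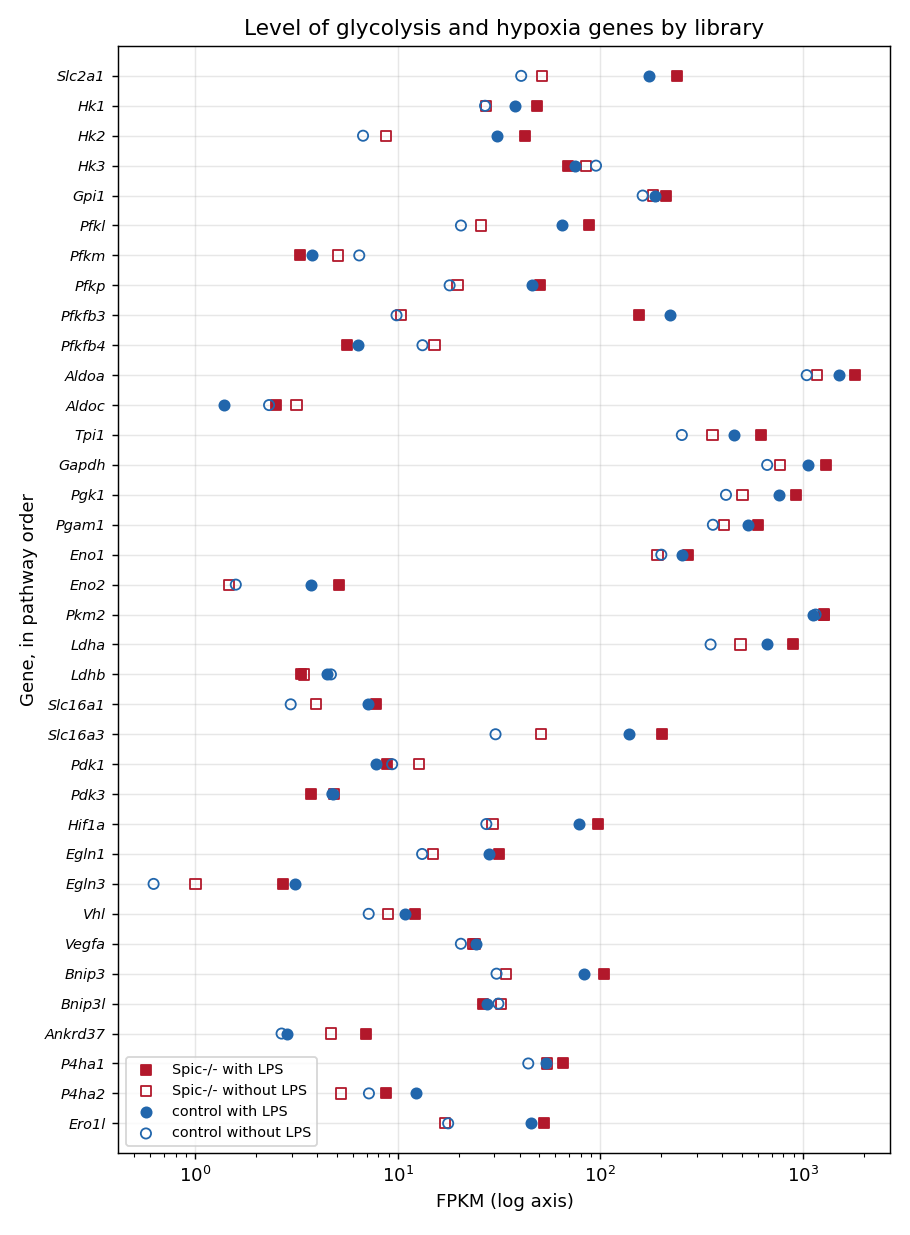
FPKM on a log axis (horizontal) for the 36 genes in pathway order (vertical), with squares for Spic-/- and circles for control libraries, filled with LPS and open without; each point is 1 library. The 9 abundant enzymes sit at the right, at 162 FPKM or more, and Pfkfb3 shows the widest gap between filled and open points, at 156 against 10.4 FPKM in knockout and 221 against 9.85 FPKM in control.

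Genes of glucose uptake (Slc2a1), the first phosphorylation (Hk2), phosphofructokinase and its activator (Pfkl, Pfkp, Pfkfb3) and lactate export (Slc16a3) were among those called higher with LPS in both genotypes. In knockout cells 11 of the 32 members at the 5 FPKM minimum were called higher with LPS, against 13.7% of all 8098 genes, and 1 was called lower, against 7.74%. In control cells 11 of 30 were called higher, against 12.3% of all 8050 genes, and 0 lower, against 6.5%. At 1.5-fold, 19 members were higher in knockout (25.4% of all genes) and 1 lower (17%), and in control 16 were higher (23.1%) and 2 lower (15.1%). The counting interval of the FPKM ratio lay above 1 for 24 of 32 members in knockout (47.1% of all genes with a known length) and below 1 for 5 (30.9%), and in control above 1 for 24 of 30 (47.1%) and below 1 for 6 (30.5%). These intervals take the scaling as deposited, and they are narrow for abundant genes, as many members are, so the shares are not a like comparison. The shared 2-fold calls were 10 genes: Pfkfb3, Slc2a1, Slc16a3, Hk2, Pfkl, Hif1a, Bnip3, Ero1l, Pfkp and Egln1. Over all 36 genes the median log2 ratio was 0.70 in knockout and 0.62 in control cells, beside 0.015 and 0.013 over the 10935 genes with at least 1 FPKM in 1 library.

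How much of this is seen as higher expression depends on how the libraries are scaled, because the summed FPKM of all genes was itself larger with LPS, at 819232 against 525348 in knockout and 736818 against 500123 in control. The 36 genes took 1.13% of that sum in knockout cells with LPS, 1.12% in knockout cells without LPS, 1.05% in control cells with LPS and 1.02% in control cells without LPS. Upper-quartile scaling moved the median of all genes to −0.23 in knockout and −0.20 in control cells, and scaling to equal summed FPKM moved it to −0.53 and −0.48. The median of the 36 genes minus the median of all genes was 0.69 in knockout and 0.60 in control cells as deposited, 0.67 and 0.58 after upper-quartile scaling, and 0.64 and 0.55 after scaling to equal sums. The share of higher genes among all calls was 63.9% as deposited, 44.3% after upper-quartile scaling and 23.0% after scaling to equal sums in knockout cells, and 65.5%, 47.7% and 26.2% in control cells. Scaling by median ratios left the values close to those deposited. The medians of all genes were then 0.020 in knockout and 0.018 in control cells, and the shares of higher genes 64.3% and 65.9%. The count of members called higher stayed at 11 in each genotype. After scaling to equal sums, Bnip3, Ero1l, Pfkp and Egln1 were under 2-fold in both genotypes, Eno2 in knockout, and Hif1a (0.94) and Slc16a1 in control, while Pfkfb3, Slc2a1, Slc16a3, Hk2 and Pfkl stayed called in both. Under all scalings tried, 19 members were above 0 in knockout and 20 in control cells.

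**Figure D2:**
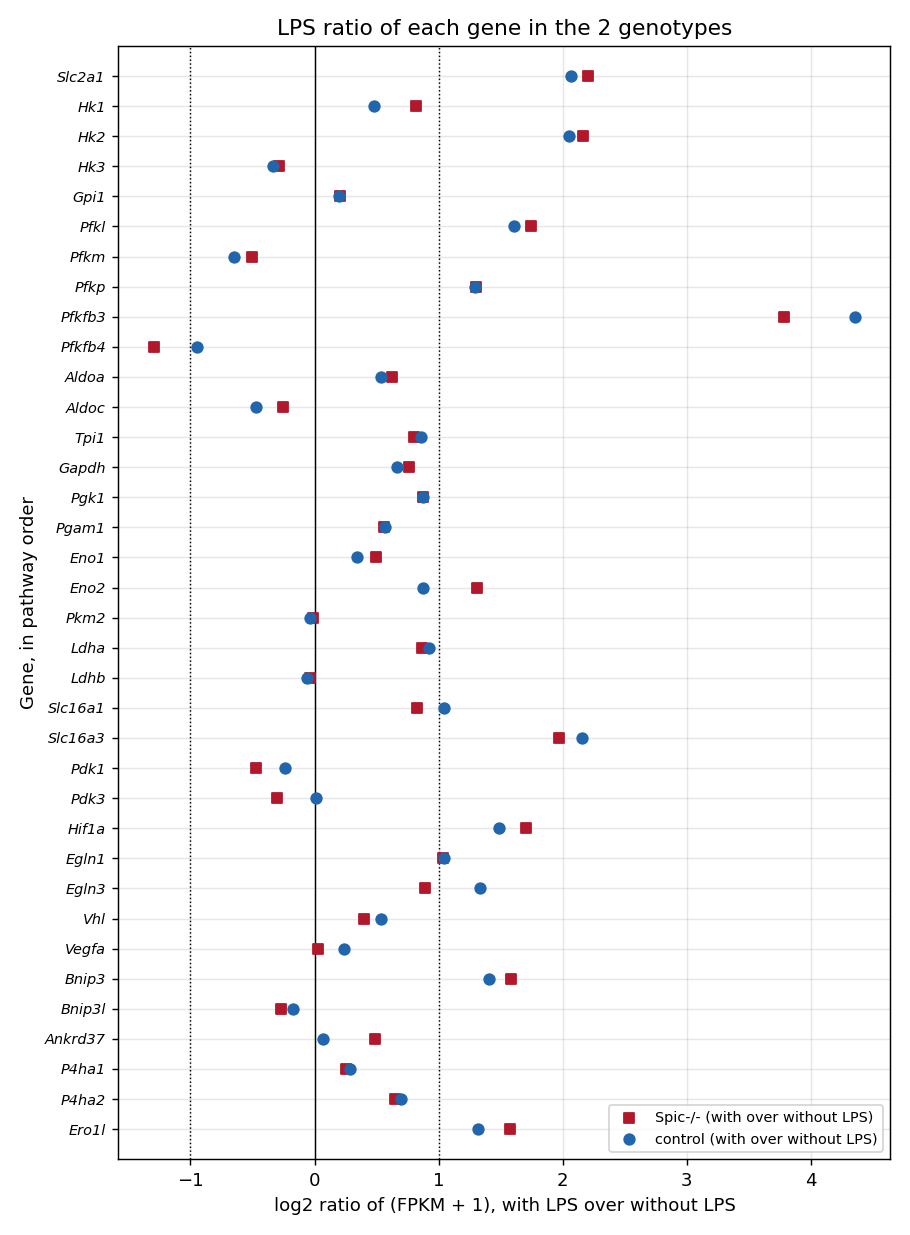
Log2 ratio of (FPKM + 1) with over without LPS (horizontal) for each gene in pathway order (vertical), squares for Spic-/- and circles for control cells; dotted lines mark 2-fold. Pfkfb3 lies farthest to the right at 3.78 in knockout and 4.36 in control cells, and Pfkfb4 farthest to the left at −1.30 and −0.95.

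Glucose entry was among the steps with the largest ratios. Slc2a1, which encodes the glucose transporter GLUT1, stood at 239 FPKM with LPS against 51.3 without in knockout cells and at 173 against 40.6 in control cells. The FPKM ratio was 4.66 (counting interval 4.43 to 4.91) in knockout and 4.26 (4.05 to 4.49) in control cells. Hk2, an inducible hexokinase gene whose product traps glucose as glucose-6-phosphate, stood at 42.5 against 8.73 FPKM in knockout and at 30.9 against 6.73 in control cells. The other hexokinase genes behaved differently from Hk2: Hk1 had log2 ratios of 0.82 in knockout and 0.48 in control cells (the control value took the other sign after scaling to equal sums), and Hk3 had −0.28 and −0.34. Hk3 nevertheless kept the highest level of the 3, at 69.4 FPKM with LPS against 84.8 without in knockout and 75.1 against 95.1 in control cells. Gpi1, whose enzyme converts glucose-6-phosphate to fructose-6-phosphate, had 0.21 and 0.20, below 0 after upper-quartile scaling and after scaling to equal sums.

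The largest ratio of all members was that of Pfkfb3, a gene that regulates the committed step. Pfkfb3 encodes a bifunctional enzyme that makes fructose-2,6-bisphosphate, the strongest allosteric activator of phosphofructokinase. It stood at 156 FPKM with LPS against 10.4 without in knockout cells, a ratio of 15.01 (13.2 to 17.1), and at 221 against 9.85 in control cells, a ratio of 22.5 (19.97 to 25.3). Its log2 ratio ranked 128th of 8098 genes in knockout and 91st of 8050 in control cells. Pfkfb4, its paralog, was lower with LPS, at 5.58 FPKM with LPS against 15.2 without in knockout and 6.37 against 13.2 in control cells. Pfkfb4 was the member called lower in knockout cells (−1.30), and in control cells it stayed just inside 2-fold (−0.95), passing it with a pseudocount of 0.1 FPKM (−1.04) and after upper-quartile scaling (−1.17). Of the phosphofructokinase genes themselves, Pfkl (liver type) stood at 88.2 against 25.6 FPKM in knockout and 64.6 against 20.5 in control cells, and Pfkp (platelet type) at 50.1 against 19.7 and 45.7 against 18.0. Pfkm (muscle type), low throughout, stood at 3.28 against 5.05 FPKM and 3.76 against 6.45.

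The abundant middle and lower enzymes had ratios under 2-fold. Pgk1, Tpi1, Gapdh, Aldoa, Pgam1 and Eno1 had log2 ratios from 0.49 to 0.88 in knockout and from 0.34 to 0.87 in control cells, with Pgk1, the first step that yields ATP, highest at 0.88 and 0.87. After scaling to equal sums Aldoa (−0.01 in knockout, −0.02 in control) and Eno1 (−0.14 and −0.22) were below 0, and so was Pgam1 in knockout cells (−0.08). Pkm2 stood apart from its neighbours in the pathway, with −0.01 and −0.04. The values are per gene, so the 2 splice forms of pyruvate kinase are not separated. The low isozymes differed from each other: Eno2, the neuronal enolase gene, was at 5.11 against 1.47 FPKM in knockout and 3.74 against 1.58 in control cells, whereas Aldoc, the brain aldolase gene, was at 2.49 against 3.15 and 1.39 against 2.31.

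At the exit towards lactate, the exporter had a larger ratio than the enzyme. Slc16a3, which encodes the lactate exporter MCT4, stood at 202 FPKM with LPS against 50.9 without in knockout and at 139 against 30.4 in control cells, with ratios of 3.98 (3.74 to 4.23) and 4.57 (4.26 to 4.91). Ldha, which reduces pyruvate to lactate, stood at 895 against 492 FPKM and at 666 against 350.1. Slc16a1, the gene of the widely expressed transporter MCT1, was at 7.76 against 3.94 FPKM in knockout (log2 ratio 0.83) and at 7.13 against 2.96 in control cells (1.04, called). Ldhb, the heart-type dehydrogenase gene, lay between 3.32 and 4.67 FPKM in the 4 libraries, with ratios of −0.03 and −0.06. Pdk1 and Pdk3, whose kinases switch off pyruvate dehydrogenase, gave no called ratio: Pdk1 was at 8.88 against 12.7 FPKM in knockout and 7.79 against 9.37 in control cells, and Pdk3 at 3.73 against 4.83 and 4.79 against 4.75.

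Among the HIF regulators, the alpha subunit gene and an enzyme that marks its protein for destruction were both higher with LPS. Hif1a stood at 97.6 FPKM with LPS against 29.3 without in knockout cells (log2 ratio 1.70) and at 78.4 against 27.3 in control cells (1.49). Egln1, the gene of the main HIF prolyl hydroxylase, stood at 31.6 against 14.9 FPKM and at 28.2 against 13.2, a log2 ratio of 1.03 and 1.04 that lies at the edge of the 2-fold call. Egln3, itself a HIF target in many cell types, was low, at 2.71 against 1.002 FPKM in knockout and 3.09 against 0.622 in control cells, and did not reach the 5 FPKM minimum. Vhl, the ubiquitin ligase subunit gene, was at 12.1 against 8.94 FPKM and 10.8 against 7.18 (0.40 and 0.53; the knockout value was below 0 after scaling to equal sums). These are transcript levels, and HIF-1 alpha is regulated mainly as a protein, which was not measured.

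The HIF target genes did not share one pattern. Bnip3, a mitophagy receptor gene, stood at 105 FPKM with LPS against 34.3 without in knockout and at 82.8 against 30.7 in control cells, and Ero1l, the gene of an oxidase that forms disulfide bonds in the endoplasmic reticulum, at 53.0 against 17.1 and 45.6 against 17.7. Both were called in both genotypes. Bnip3l, the close relative of Bnip3, had log2 ratios of −0.27 in knockout and −0.18 in control cells. Vegfa, the angiogenic growth factor gene, had 0.03 and 0.24, P4ha1, a collagen prolyl hydroxylase gene, 0.25 and 0.28, and Ankrd37, an ankyrin repeat gene, 0.49 and 0.07; after scaling to equal sums each of these was below 0 in both genotypes. P4ha2, the second collagen prolyl hydroxylase gene, had 0.65 and 0.70.

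With LPS the make-up of several isozyme groups differed, beyond what single ratios show. Hk2 made up 26.5% of the summed hexokinase FPKM with LPS against 7.23% without in knockout cells and 21.5% against 5.23% in control cells, while Hk3 made up 43.2% against 70.2% and 52.2% against 73.9%. The summed hexokinase level itself was 161 against 121 FPKM in knockout and 144 against 129 in control cells. Pfkfb3 made up 95.6% of the 4 Pfkfb genes with LPS against 34.2% without in knockout and 96.4% against 35.5% in control cells, and Pfkfb4 was the largest of the 4 without LPS, at 49.97% and 47.7%. Of the 3 glucose transporter genes grouped here (Slc2a1, Slc2a3 and Slc2a6), Slc2a1 made up 49.6% with LPS against 84.5% without in knockout cells. In control cells it made up 46.6% against 83.3%. The transporter shares depend on which genes are grouped, and the level of Slc2a1 itself was higher with LPS. The largest other share with LPS was that of Slc2a6, a transporter gene outside the 36, which stood at 243 against 7.69 FPKM and 198 against 6.40. By contrast, the shares of Egln1 among the 3 HIF prolyl hydroxylase genes lay between 37.0% and 38.6% in all 4 libraries. These shares are unaffected by any scaling of a library as a whole.

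**Figure D3:**
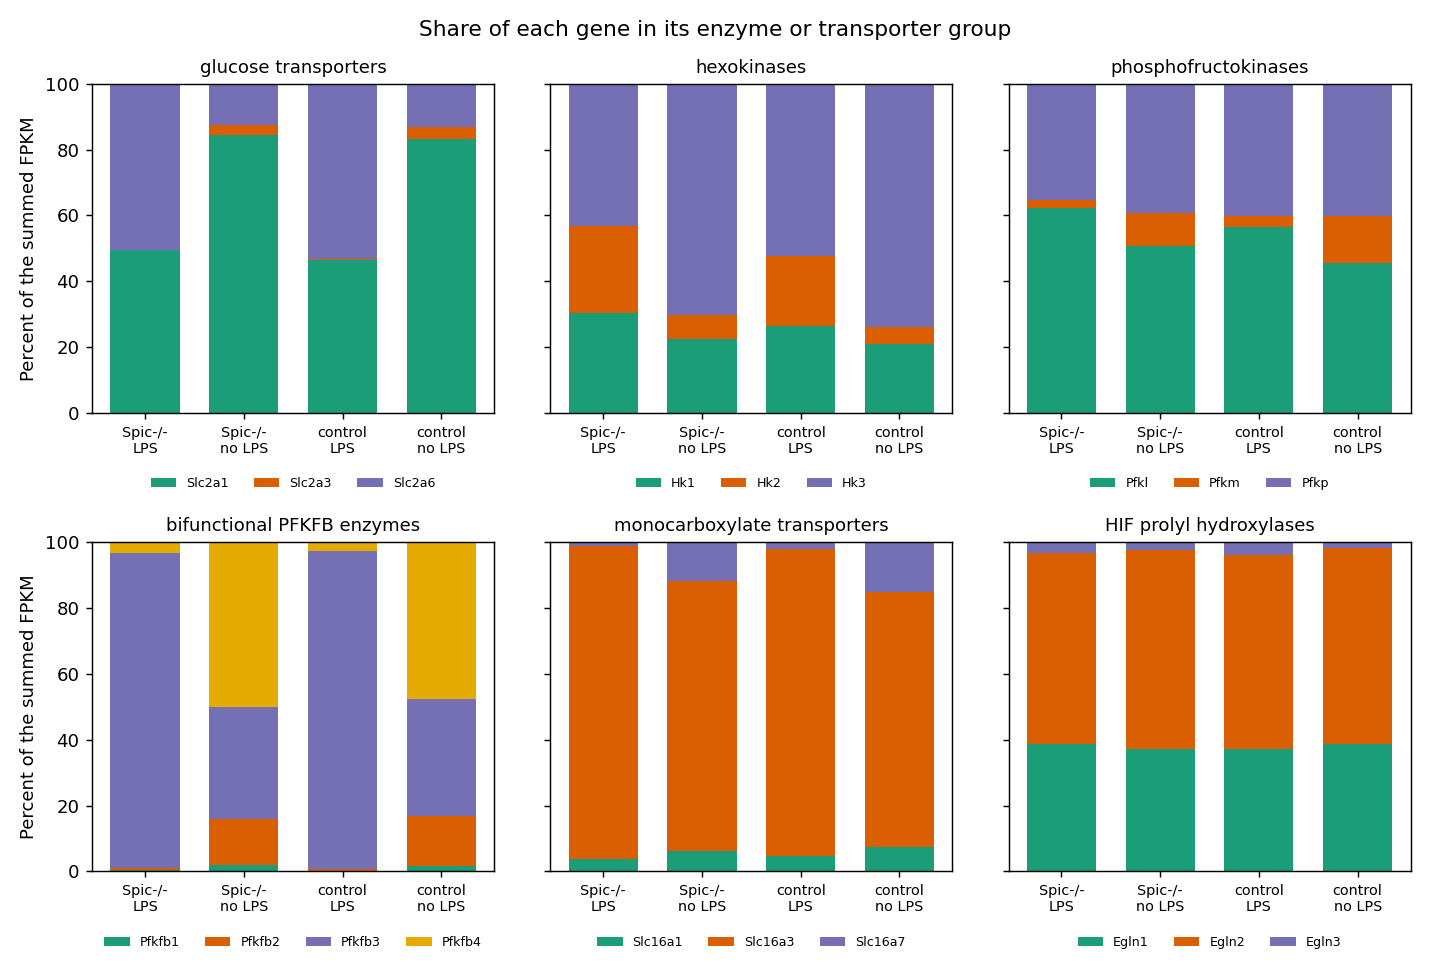
Share of each gene (percent of the summed FPKM, vertical) within 6 enzyme or transporter groups, for the 4 libraries along the horizontal axis; each bar is 1 library and adds to 100. Hk2, Pfkfb3 and Slc2a6 take larger shares in the libraries with LPS of both genotypes, and the HIF prolyl hydroxylase bars look alike.

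Promoter sequence was read for the members from the RefSeq-based promoter table of GRCm38.p6, which gives 250 bases before and 50 bases after each annotated start. Entries were found for 35 of the 36 genes, 49 promoters in all, some of which overlap because they are alternative starts of a gene. The core that HIF binds, ACGTG or GCGTG on either strand, was present in 79.6% of the 49 promoters, against 43.8% of all 32851 promoters and 62.3% of the 10040 promoters of genes with at least 1 FPKM. For ACGTG alone the shares were 57.1%, 19.6% and 26.1%. The members' promoters were also richer in G and C, with a median of 62.7% against 52.7% for all promoters and 60.7% for those of genes with at least 1 FPKM. The core did not separate the members by their LPS ratio: it was found in 11 of the 12 genes called higher with LPS in 1 genotype or both and in 20 of the 23 others with a promoter entry. The core GAGGAA, which factors of the Spi group recognise, was in 28.6% of the members' promoters and 28.3% of all promoters.

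Printed here are a promoter of Pfkfb3, which had the largest LPS ratio, those of Slc2a1 and Slc16a3 at the entry and exit of the pathway, those of Hif1a and Bnip3, and that of Eno2, the called gene in which neither core was found. Capitals mark the core, ACGTG or GCGTG, read on either strand. A match is a description of the letters and not evidence of binding.
Pfkfb3, chr2:11502041-11502340, minus strand: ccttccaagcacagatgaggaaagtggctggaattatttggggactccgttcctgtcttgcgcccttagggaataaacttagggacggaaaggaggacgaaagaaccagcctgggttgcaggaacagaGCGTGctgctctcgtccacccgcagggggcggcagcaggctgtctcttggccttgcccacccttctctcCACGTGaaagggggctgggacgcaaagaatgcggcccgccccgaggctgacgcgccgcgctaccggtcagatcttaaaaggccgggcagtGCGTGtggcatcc
Slc2a1, chr4:119108495-119108794, plus strand: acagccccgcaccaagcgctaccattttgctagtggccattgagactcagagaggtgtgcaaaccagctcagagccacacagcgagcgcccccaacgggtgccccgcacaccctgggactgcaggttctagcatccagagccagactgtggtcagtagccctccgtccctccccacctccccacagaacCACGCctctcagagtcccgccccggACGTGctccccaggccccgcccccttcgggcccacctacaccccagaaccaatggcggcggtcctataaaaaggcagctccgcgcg
Slc16a3, chr11:120948817-120949116, plus strand: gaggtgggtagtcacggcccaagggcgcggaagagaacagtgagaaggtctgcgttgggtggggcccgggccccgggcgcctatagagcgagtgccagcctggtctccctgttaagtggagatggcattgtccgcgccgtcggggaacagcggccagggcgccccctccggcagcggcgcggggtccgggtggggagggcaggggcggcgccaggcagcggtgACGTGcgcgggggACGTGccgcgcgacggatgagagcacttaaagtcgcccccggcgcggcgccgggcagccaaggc
Hif1a, chr12:73907617-73907916, plus strand: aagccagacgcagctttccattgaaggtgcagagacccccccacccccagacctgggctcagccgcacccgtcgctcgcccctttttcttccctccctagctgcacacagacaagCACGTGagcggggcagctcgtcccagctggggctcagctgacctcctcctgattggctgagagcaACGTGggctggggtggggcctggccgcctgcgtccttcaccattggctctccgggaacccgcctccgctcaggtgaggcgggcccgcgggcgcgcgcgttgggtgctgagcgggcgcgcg
Bnip3, chr7:138909457-138909756, minus strand: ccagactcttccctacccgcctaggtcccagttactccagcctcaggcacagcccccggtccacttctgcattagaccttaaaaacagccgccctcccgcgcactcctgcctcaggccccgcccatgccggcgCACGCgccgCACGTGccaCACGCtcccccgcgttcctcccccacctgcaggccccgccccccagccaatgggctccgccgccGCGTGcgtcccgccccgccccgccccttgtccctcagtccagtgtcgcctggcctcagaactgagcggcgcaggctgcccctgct
Eno2, chr6:124769624-124769923, minus strand: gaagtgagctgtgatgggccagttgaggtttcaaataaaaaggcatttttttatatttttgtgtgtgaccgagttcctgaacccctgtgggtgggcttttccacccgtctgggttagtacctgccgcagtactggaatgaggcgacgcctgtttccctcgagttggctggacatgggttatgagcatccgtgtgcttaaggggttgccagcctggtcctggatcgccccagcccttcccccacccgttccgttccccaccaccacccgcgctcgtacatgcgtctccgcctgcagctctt

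Between genotypes the differences were smaller than those with LPS. With LPS, 1 of 31 members at the minimum was called higher in knockout than in control, against 0.493% of all 7509 genes, and 0 lower, against 0.4%. Without LPS, 0 of 29 were called higher, against 0.49% of all 7762 genes, and 0 lower, against 0.412%. At 1.5-fold the count with LPS was again 1 higher, against 2.86% of genes, and 0 lower, against 1.69%. Without LPS it was 1 higher, against 1.75%, and 0 lower, against 1.37%, counts too small to describe the 36 genes as a group. The median log2 ratio over the 36 was 0.17 with LPS and 0.18 without, beside 0.056 and 0.051 over all genes at 1 FPKM. After upper-quartile scaling it was 0.030 and 0.068, beside −0.075 and −0.049 over all genes, and the share of higher genes among all calls was 39.1% with LPS and 43.3% without, against 55.2% and 54.3% as deposited. Scaling by median ratios gave 0.176 and 0.178 over the 36, with the same shares of higher genes as deposited.

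The called gene was Ankrd37, a HIF target whose function is poorly known. It stood at 6.95 FPKM in knockout against 2.85 in control cells with LPS, a ratio of 2.44 (1.43 to 4.32), and at 4.66 against 2.67 without LPS, a ratio of 1.75 (1.09 to 2.92). These values rest on about 41 and 22 fragments with LPS and 44 and 30 without. Its log2 ratio of 1.05 with LPS was 0.61 with a pseudocount of 5 FPKM, 0.91 after upper-quartile scaling and 0.89 after scaling to equal sums, each under 2-fold. Exons of Ufsp2 and Lrp2bp overlap it on the opposite strand. Ufsp2 stood at 30.4 FPKM in knockout against 24.97 in control cells with LPS, and at 35.8 against 33.2 without, and the sources used here do not give whether counting used strand. This limit is not particular to Ankrd37. Exons of another gene overlap 13 members, and for 7 members a listed gene overlaps on the opposite strand. Pfkp, for example, overlaps Pitrm1, which stood at 19.5 FPKM with LPS against 13.8 without in knockout cells.

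Slc16a3 was the member at 1.5-fold without LPS, at 50.9 FPKM in knockout against 30.4 in control cells, a ratio of 1.68 (1.55 to 1.82), and with LPS at 202 against 139, a ratio of 1.46 (1.39 to 1.53). Its log2 ratio without LPS (0.73) ranked 74th of 7762 genes. Ldha and Tpi1 pointed the same way in both states, with Ldha at 895 FPKM in knockout against 666 in control cells with LPS and 492 against 350.1 without, and Tpi1 at 623 against 459 and 357 against 252. In the opposite direction, P4ha2 stood at 8.74 FPKM in knockout against 12.3 in control cells with LPS and at 5.22 against 7.20 without. Pfkfb3 was at 156 FPKM in knockout against 221 in control cells with LPS, a ratio of 0.704 (0.670 to 0.740), and without LPS it was at 10.4 against 9.85, a ratio of 1.05 (0.888 to 1.25); its log2 ratios with LPS (−0.50) and without (0.07) were −0.65 and −0.03 after upper-quartile scaling. Across the 31 members at the minimum with LPS, the counting interval lay above 1 for 22 (34.5% of all genes with a known length) and below 1 for 3 (8.09%); without LPS it lay above 1 for 18 of 29 (28.8%) and below 1 for 4 (7.64%). Since the members are abundant, their counting intervals are narrow, and these shares describe 4 cultures rather than the genotypes.

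**Figure D4:**
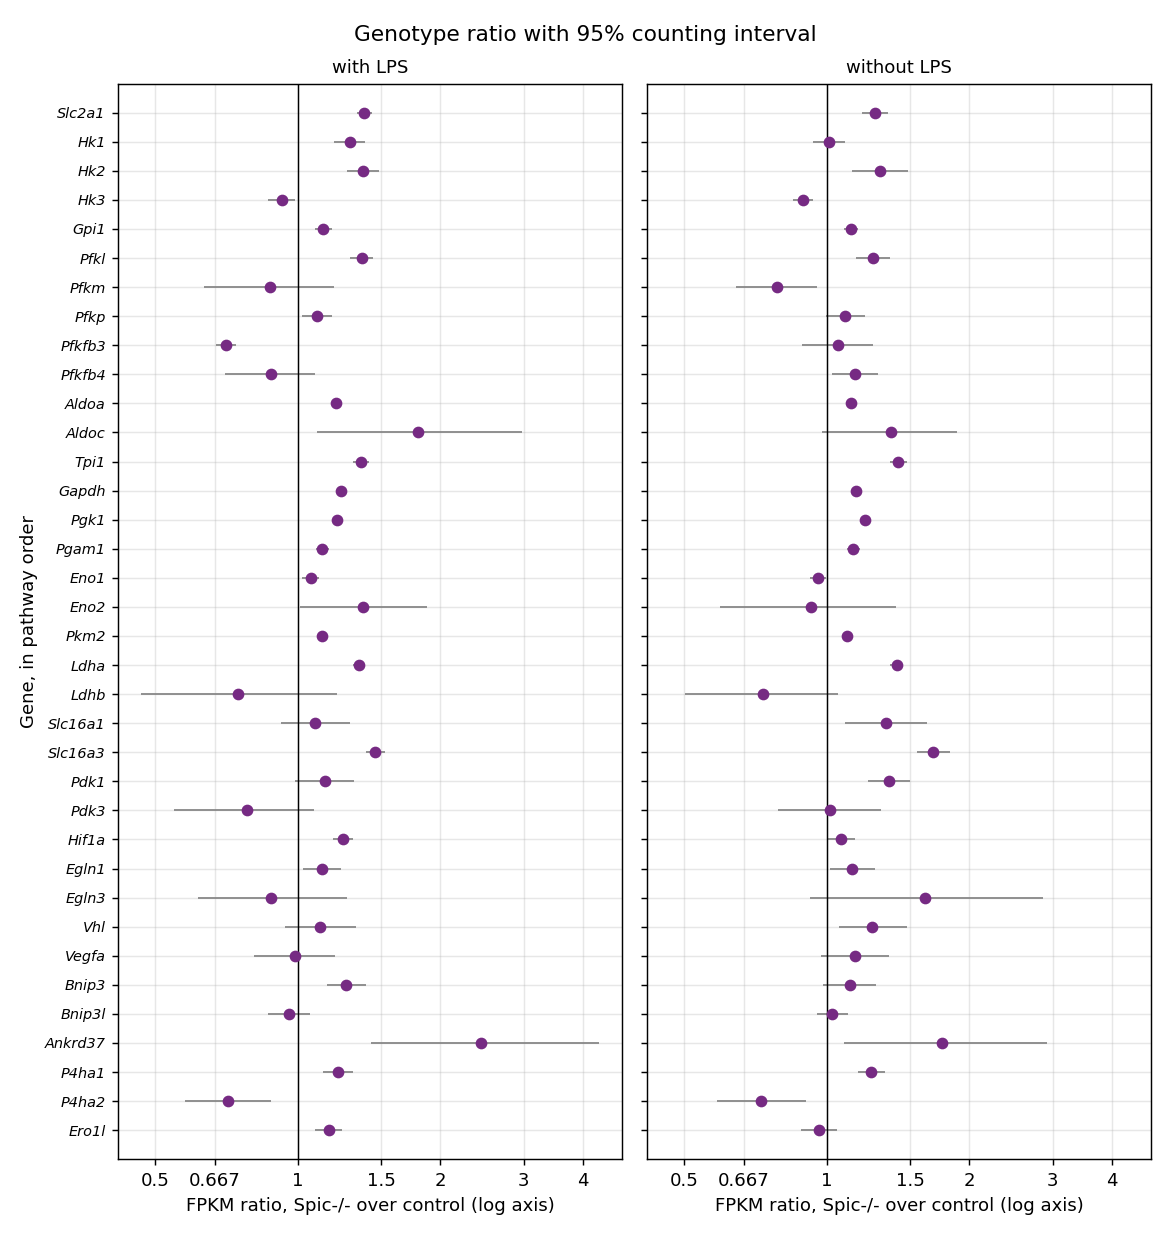
FPKM ratio of Spic-/- over control cells (horizontal, log axis) for each gene in pathway order (vertical), with LPS on the left and without LPS on the right; lines are 95% counting intervals, which leave out variation between cultures. Slc16a3 lies right of 1 in both panels (1.46 and 1.68), Pfkfb3 lies at 0.704 with LPS and 1.05 without, and the interval of Ankrd37 is among the widest.

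The knockout and control cultures also differed in markers of stromal cells. The 9 markers summed to 421 FPKM in knockout against 715 in control cells with LPS and to 369 against 735 without, and 6 of 9 with LPS and 7 of the 8 at the minimum without LPS were at least 1.5-fold lower, against 1.69% and 1.37% of all genes. None of the 9 was at 0 in any library: Acta2, which codes for smooth muscle actin, was at 118 FPKM against 243 with LPS and 109 against 237 without. Dcn was not lower in knockout, at 8.28 FPKM against 7.70 with LPS and 2.82 against 2.71 without. Pdgfrb had log2 ratios of −0.28 with LPS and −0.36 without, under 1.5-fold. Of the collagen prolyl hydroxylase genes, which matrix-producing cells also use, P4ha2 was lower in knockout as given above, whereas P4ha1 stood at 65.3 FPKM in knockout against 53.8 in control cells with LPS and at 54.7 against 44.0 without (ratios of 1.21 and 1.24). In bulk RNA fewer cells of a type and less RNA per cell cannot be told apart; the part of these markers in the ratios of the 36 genes was not tested. Neutrophil markers summed to 131 FPKM in knockout against 242 in control cells with LPS and to 31.4 against 41.4 without, nearly all of it S100a8 and S100a9, with Mpo at 0 in every library. S100a8 was itself higher with LPS, at 114 FPKM against 18.5 in knockout and 214 against 20.2 in control cells. S100a9 lay between 9.94 and 19.9 FPKM, and Ngp, Ltf, Camp and Elane at 4.82 FPKM or less. What these sums say of neutrophil content was not tested.

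The LPS ratios of the 2 genotypes differed little for most members. The knockout log2 ratio minus the control log2 ratio had a median of 0.01 over the 36 genes, the same as over all genes (0.01), and ran from −0.57 for Pfkfb3 to 0.44 for Eno2. For Pfkfb3, 3.13% of all genes with at least 5 FPKM in 1 library had a difference of that size or more in either direction. Egln3 had −0.45 and Ankrd37 0.42, both at levels that rest on 80 fragments or fewer in each library. The levels of Eno2 are similarly limited and rest on 41 to 90 fragments. Hif1a had 0.21 and Slc2a1 0.13, sizes that 26.1% and 46.1% of genes reached or exceeded.

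Neighbouring pathways were described by lists that share no gene with the 36, each by its counts and the 4 genes with the largest log2 ratios in either direction. Of 37 other HIF-related and glycolytic genes, 35 were listed. In knockout cells 7 of the 19 at the minimum were called higher with LPS and 3 lower, against 13.7% and 7.74% of all genes. In control cells 7 of 18 were called higher and 3 lower, against 12.3% and 6.5% of all genes. The median over the 27 with at least 1 FPKM in 1 library was 0.30 in knockout and 0.26 in control cells. The largest ratios were those of Slc2a6 (4.81 in knockout, 4.75 in control), Adm, the adrenomedullin gene (3.74 in both), Ak4, a mitochondrial adenylate kinase gene (2.96 and 2.44), Cited2, the gene of a protein that competes with HIF-1 alpha for its coactivators (1.84 in knockout), and Ddit4, an inhibitor of mTOR signalling (2.08 in control). Bpgm (−1.51 in knockout, −1.37 in control) and Pdp1 (−1.14 and −1.07) were called lower in both genotypes. Slc16a7 was called lower in knockout (−1.24), and Plin2 in control cells (−1.05), at 266 FPKM with LPS against 553 without.

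The pentose phosphate and glycogen lists each held 1 gene called lower with LPS in each genotype, a share near that of all genes (7.74% in knockout, 6.5% in control), and 0 called higher, beside 13.7% and 12.3% of all genes. Of the 11 pentose phosphate genes, with medians of −0.37 in knockout and −0.26 in control cells, 0 of 10 at the minimum were called higher with LPS and 1 lower in each genotype. That gene was H6pd, which acts in the endoplasmic reticulum (−1.27 in knockout, −1.05 in control), followed without a call by Prps2 (−0.71 and −0.74), Pgls (−0.67 and −0.39) and G6pdx, the gene of the first enzyme of the branch (−0.48 in both). Of 14 glycogen genes, the 13 with at least 1 FPKM had medians of 0.02 and −0.09, with 0 of 12 called higher and 1 lower, the phosphorylase gene Pygb (−1.12 and −1.03). The next were Phka2 (−0.99 and −0.79), the glycogen synthase gene Gys1 (0.86 and 0.79), and, in knockout cells, Pgm2 (0.58). Of 13 listed genes of pyruvate entry and gluconeogenesis, the 10 with at least 1 FPKM had medians of 0.14 and 0.07. Dld, a dehydrogenase subunit gene, was called higher (1.09 and 1.15), and Pck2, a mitochondrial gene of gluconeogenesis, was called lower in control cells (−1.07) and was under the 5 FPKM minimum in knockout cells. Brp44l, a subunit gene of the mitochondrial pyruvate carrier (0.75 and 0.57), Pdhx (0.72 and 0.57) and, in knockout cells, Me1 (0.48) had no call, and Pck1, Fbp1 and Fbp2 were listed at 0 in every library.

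Between genotypes, no gene of these 4 lists was called in either LPS state, where 0.493% of all genes were called higher and 0.4% lower with LPS, and 0.49% and 0.412% without. With LPS the largest ratios were those of Cited2, at 114 FPKM in knockout against 58.3 in control cells (log2 ratio 0.96), Angptl4, a secreted lipase inhibitor gene (−0.71), Adm (−0.58) and Ak4 (0.54), and the medians of the 27 HIF-related genes with at least 1 FPKM in 1 library were 0.02 with LPS and 0.04 without.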

How the data were processed

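The authors deposited FPKM values per gene, 1 file per library, with no read counts. The submitters' processing notes name the mm10 build and the tools Cuffnorm 2.2.1, TopHat2 2.0.13, SAMtools 0.1.19 and Bowtie2 2.2.3; their settings, the library scaling and the annotation are not given in the sources used here. Per the labels' protocols, a TruSeq stranded mRNA kit turned RNeasy-purified RNA into libraries. The main values are FPKM as deposited. Ratios on the log2(FPKM + 1) scale came from Python 3.11.15 with a 5 FPKM minimum in 1 of the 2 libraries and a 2-fold threshold; medians used genes with at least 1 FPKM in 1 library. Fragments per FPKM, relative between libraries, came from the spacing of low FPKM values. Of 3175 genes with low values, 82.9% were whole multiples of 1 step within a tolerance of 0.02, against 3.53% after scrambling. With GENCODE vM21 transcript lengths less 190 bases, 1 FPKM equalled 8.00, 12.8, 10.5 and 15.5 fragments per kilobase in knockout with LPS, knockout without LPS, control with LPS and control without LPS. These estimates use the median length of each gene's coding transcripts and gave exact (Clopper-Pearson) 95% intervals. All members are accounted for; values for every library were given for members called at 2-fold with LPS, at 1.5-fold between genotypes, for HIF regulators and for the highest levels, and for other lists the 4 largest ratios in each comparison described. Some genes that this rule takes are left out of the text, and the other HIF-related genes called lower with LPS were added. The members and lists were chosen with earlier results of these data known. The 2-fold calling was tested on counts simulated from the control library with LPS, with changes of known size. That simulation did not test the estimate of fragments per FPKM or the counting intervals. Pseudocounts, minimums, thresholds and scalings were varied, and scaling to equal summed FPKM was added after seeing the data.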

Additional observations from a re-analysis of the deposited data

Results flagged for a closer look

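Members whose genotype ratio pointed in opposite directions with and without LPS, or whose LPS ratio did so in the 2 genotypes, were picked out; with 1 library per group the differences were not tested. There were 10 such pairs in 9 genes. The log2 ratio of knockout over control was −0.50 with LPS and 0.07 without for Pfkfb3, −0.16 and 0.18 for Pfkfb4, 0.09 and −0.06 for Eno1, 0.37 and −0.07 for Eno2, −0.29 and 0.02 for Pdk3, −0.14 and 0.30 for Egln3, −0.02 and 0.19 for Vegfa, −0.06 and 0.04 for Bnip3l, and 0.21 and −0.05 for Ero1l. The log2 LPS ratio of Pdk3 was −0.30 in knockout and 0.01 in control. The counting intervals of both ratios excluded 1 for Eno1 alone, whose ratios are close to 1, and its ratio with LPS was below 0 after upper-quartile scaling and after scaling to equal sums.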

How the results depend on the processing

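No paired analysis was possible because each group holds 1 library, and no library could be left out. With LPS, the count of members called higher, 11 in each genotype, was 6 in knockout and 5 in control after scaling to equal sums and at 3-fold, and 19 in knockout at 1.5-fold. Members called lower with LPS, 1 in knockout and 0 in control, numbered 0 in knockout with a pseudocount of 5 FPKM, a 20 FPKM minimum or a 3-fold threshold and 3 after scaling to equal sums; in control they numbered 1 with a pseudocount of 0.1 FPKM or upper-quartile scaling, and 2 at 1.5-fold or equal sums. With LPS the 1 member called higher in knockout than in control became 0 with a pseudocount of 5 FPKM, a 20 FPKM minimum, upper-quartile scaling, equal sums or 3-fold, and without LPS the 0 became 1 at 1.5-fold. The LPS median of members, 0.70 in knockout, was 0.53 with a pseudocount of 5 FPKM, 0.84 over members with at least 20 FPKM, 0.44 after upper-quartile scaling and 0.10 after equal sums; in control, 0.62 became 0.87, 0.37 and 0.069 under the last 3. The genotype median with LPS, 0.17, was 0.030 after upper-quartile scaling and 0.028 after equal sums. In the comparison in which it was called, no member changed sign under any pseudocount or scaling tried; in other comparisons Pfkfb3, Hif1a, Pfkp, Slc16a1 and Ankrd37 did under 1 or more scalings. Counts of 30 fragments or fewer, as for Ankrd37, Egln3, Ldhb and Aldoc in 1 or more libraries, limit those ratios most.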
